A study of Mus with 6 samples.

Results

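The 9 genes described here are Hif1a, which encodes the oxygen-regulated subunit of the transcription factor HIF-1, and 8 genes known to be induced by it, namely Vegfa, Car9, Bnip3, Ldha, Pdk1, Egln3, Ndrg1 and Adm. They were chosen by name as a pathway, with earlier results of these data known. Their values were read by Ensembl ID from a table of 35304 gene IDs, in which all 9 were found. The table held read counts from RNA sequencing of total RNA from 4T1, a highly metastatic mouse mammary carcinoma line. Of the 6 libraries, 3 came from cells exposed to isopimaric acid (IPA), a plant resin acid described in the series title as an ion channel regulator, at 10 µg/mL for 24 h, and 3 came from cells labelled as having no treatment. Both groups grew in RPMI medium with 10% fetal bovine serum at 37 °C and 5% CO2. No label states the oxygen level, the solvent of IPA, whether the untreated wells received that solvent, or whether the replicates were separate cultures. The p-values therefore measure only the spread between these libraries, which may be technical.

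In cells with enough oxygen, prolyl hydroxylases of the EGLN family mark the HIF-1 alpha protein for destruction by the VHL ubiquitin ligase. When oxygen falls the protein escapes hydroxylation, pairs with ARNT and switches on genes for blood vessel growth, glycolysis, pH control and mitophagy. Much of the control of HIF-1 is thus at the level of protein, which RNA counts do not measure. Egln3 is both a hydroxylase and a target, so it takes part in a feedback loop. In tumours, including those of the breast, several of these targets are used as markers of hypoxia.

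The libraries differed widely in depth and 1 of them stood apart. Totals ranged from 3410411 to 43593509 counts in the IPA group, where replicate 1 was the shallowest, and from 20257983 to 58924711 counts in the untreated group. Untreated replicate 2 correlated with the other libraries at 0.781 to 0.817 in log2 CPM (read counts scaled to the library total) across gene IDs, whereas the other 5 correlated with each other at 0.919 to 0.987. Each result is therefore given over all 6 libraries and over the 5 without that one. The identity of the cells was not checked against marker genes, since the sources used here pair no Ensembl ID with a symbol beyond the 9 genes. Together the 9 genes took 0.403% to 0.446% of the counts of IPA libraries and 0.401% to 0.473% of those of untreated libraries, so their summed level overlapped between the groups.

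Without untreated replicate 2, Egln3 and Bnip3 fell in IPA-treated cells, and no gene of the 9 rose past the threshold. The fitted levels with IPA were 0.639 times the untreated level for Egln3 and 0.707 times for Bnip3. In that comparison 2 of the 9 genes were lower at an adjusted p under 0.05, where 2.2% of all 25592 tested IDs were lower, 1.26% were higher and 3.46% changed in either direction. Ldha lay at 0.698 times the untreated level and just missed the threshold. In RNA from whole wells, fewer cells expressing a gene and less RNA per cell cannot be told apart. Over all 6 libraries 0 of the 9 genes passed in edgeR, and 0% of all 24935 tested IDs did. On the same libraries limma-voom called 0 of the 9 genes and 0% of all IDs, while DESeq2 called 0 of the 8 genes to which it gave an adjusted p, which leaves out Adm, and 0.701% of all such IDs. At an unadjusted p under 0.05, edgeR had 3 of the 9 genes over the 6 libraries, namely Bnip3, Ldha and Egln3, against 6.26% of all tested IDs. The fold changes of the 9 genes did not all have the same sign, and differences between genes were not tested. Vegfa had a positive fold change in both comparisons, which did not pass the test in either. Hif1a, at 0.0049, and Ndrg1, at -0.0017, had log2 fold changes near 0 without untreated replicate 2.

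**Figure D1:**
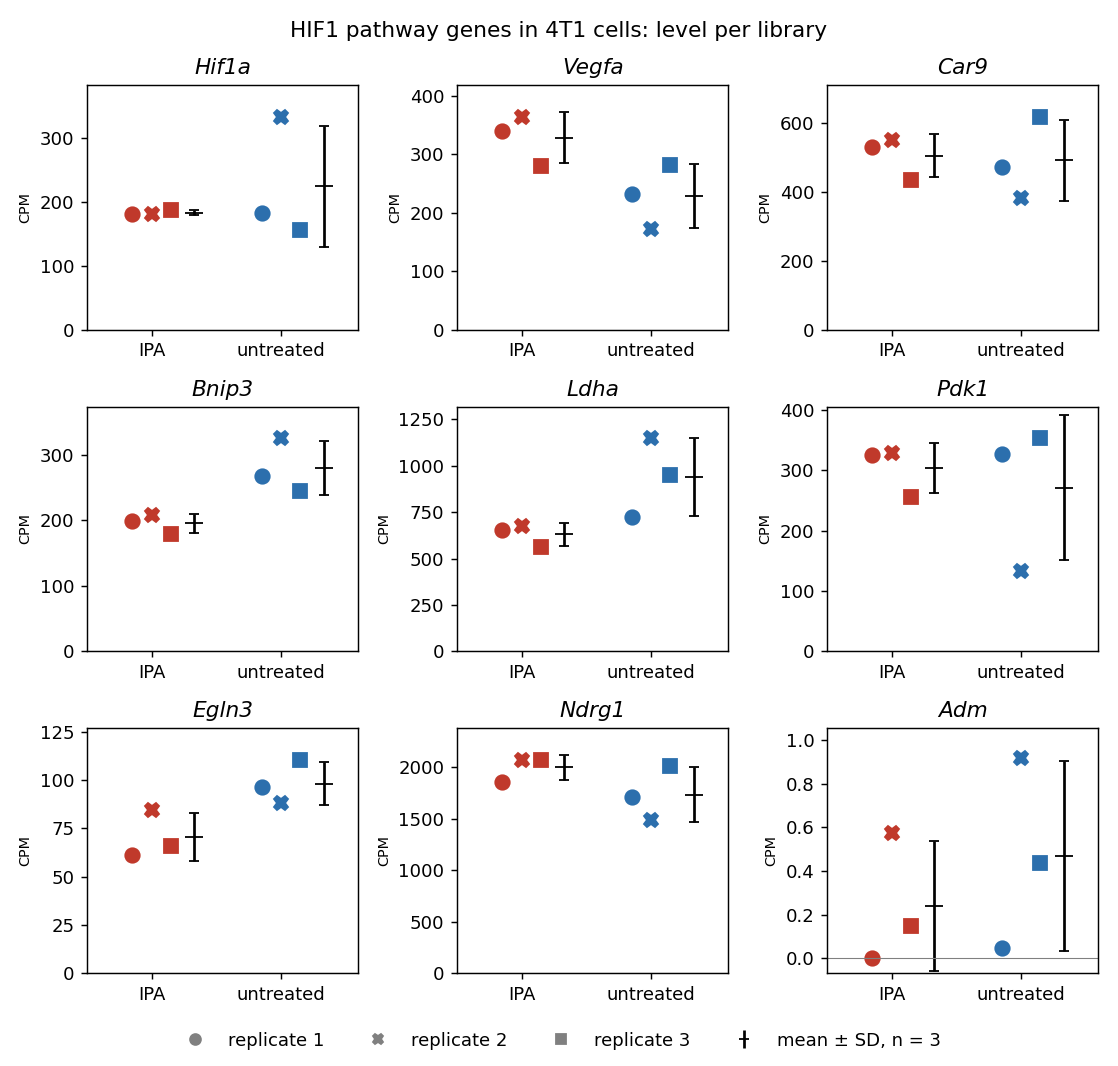
Level of each gene in CPM (vertical axis, with its own scale in each panel) in the 3 IPA libraries (red, left) and the 3 untreated libraries (blue, right). Symbols mark the replicates and black bars the mean ± SD (n = 3 each). The groups are separate for Bnip3, Ldha and Egln3, and untreated replicate 2 is the highest or the lowest untreated library for all 9 genes.

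Hif1a (ENSMUSG00000021109) lies on chromosome 12 from base 73901324 to base 73947554 in RefSeq's annotation of GRCm38, the build named in the submitters' processing notes. It had 181, 182 and 188 CPM in IPA replicates 1, 2 and 3, against 183, 333 and 156 CPM in untreated replicates 1, 2 and 3. The IPA libraries were close together and lay between the lowest and the highest untreated library. Its mean was 183 ± 3.87 CPM with IPA and 224 ± 95.1 CPM untreated (SD, n = 3 each), and the larger SD came with the value of untreated replicate 2. Over all 6 libraries the log2 fold change was -0.61 ± 0.41 (SE; edgeR adjusted p = 0.665), and without untreated replicate 2 it was 0.0049 ± 0.13 (SE; edgeR adjusted p = 0.994). A second ID, ENSMUSG00000087700, carried nearly the same counts as Hif1a in every library, with 616, 7926 and 7720 in IPA replicates 1 to 3 and 3731, 19673 and 8290 in untreated replicates 1 to 3. Hif1a itself had 616, 7915 and 7703 counts in those IPA libraries and 3706, 19613 and 8274 in those untreated libraries. The same reads may have been counted for both IDs, and the level of Hif1a is uncertain to that extent. The annotation places a long noncoding RNA, Gm15283, over the high-coordinate end of the Hif1a locus, but the sources used here do not say which gene the second ID belongs to.

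Egln3 (ENSMUSG00000035105) encodes prolyl hydroxylase PHD3, which acts on HIF alpha proteins, and lies on chromosome 12 from base 54178981 to base 54203874. Its level was 61.0, 84.4 and 65.7 CPM in IPA replicates 1, 2 and 3, against 96.4, 88.0 and 110 CPM in untreated replicates 1, 2 and 3. Every IPA library was below every untreated library, with the narrowest gap between IPA replicate 2 and untreated replicate 2. The counts behind these values ran from 208 in IPA replicate 1 to 5836 in untreated replicate 3, and the exact 95% Poisson interval of the shallow library was 53.0 to 69.9 CPM, which covers counting error only. The mean was 70.4 ± 12.4 CPM with IPA and 98.3 ± 11.3 CPM untreated (SD, n = 3 each). Without untreated replicate 2 the log2 fold change was -0.65 ± 0.15 (SE; edgeR adjusted p = 0.0199), and over all 6 libraries it was -0.71 ± 0.21 (SE; edgeR adjusted p = 0.657). The estimates with and without that library differed by less than either standard error, and the standard error was smaller without it. Egln3 no longer passed when IPA replicate 1 (edgeR adjusted p = 0.0529) or IPA replicate 3 (edgeR adjusted p = 0.11) was also left out. Leaving out untreated replicate 1 or 3 as well left 1 untreated library, with log2 fold changes of -0.73 and -0.55.

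Bnip3 (ENSMUSG00000078566) encodes a protein of the outer mitochondrial membrane that promotes mitophagy, the removal of mitochondria, and lies on chromosome 7 from base 138890836 to base 138909506. It had 198, 208 and 180 CPM in IPA replicates 1, 2 and 3, against 268, 325 and 244 CPM in untreated replicates 1, 2 and 3. All 3 IPA libraries were below all 3 untreated libraries. The mean was 195 ± 14.3 CPM with IPA and 279 ± 41.2 CPM untreated (SD, n = 3 each). Without untreated replicate 2, which had the highest level, the log2 fold change was -0.50 ± 0.13 (SE; edgeR adjusted p = 0.0381). Over all 6 libraries it was larger, at -0.79 ± 0.28 (SE; edgeR adjusted p = 0.657). The call was lost with library totals in place of TMM factors (edgeR adjusted p = 0.0918). It was also lost with a filter at 1 CPM in 3 or more samples (edgeR adjusted p = 0.0506). With a block on replicate number the edgeR adjusted p was 0.264. Leaving out IPA replicate 1, 2 or 3 as well gave edgeR adjusted p-values of 0.0673, 0.165 and 0.258. Leaving out untreated replicate 1 or 3 as well left 1 untreated library, with log2 fold changes of -0.42 and -0.58. The annotation lists a pseudogene, Gm18258, within the span of Bnip3, and how reads that fit both were counted is not given in the sources used here.

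Ldha and Pdk1 turn pyruvate away from the mitochondria, Ldha as the lactate dehydrogenase subunit that favours lactate formation and Pdk1 as the kinase that inhibits pyruvate dehydrogenase. Ldha (ENSMUSG00000063229) lies on chromosome 7 from base 46842274 to base 46855627 and had 651, 675 and 562 CPM in IPA replicates 1, 2 and 3, against 725, 1146 and 949 CPM in untreated replicates 1, 2 and 3. The IPA libraries were again all below the untreated ones, and the untreated libraries were far more spread. The mean was 629 ± 59.7 CPM with IPA and 940 ± 211 CPM untreated (SD, n = 3 each). The log2 fold change of Ldha was -0.52 ± 0.15 without untreated replicate 2 (SE; edgeR adjusted p = 0.058) and -0.86 ± 0.33 over all 6 libraries (SE; edgeR adjusted p = 0.657). On the same 5 libraries DESeq2 gave an adjusted p of 0.0244 and limma-voom one of 0.0137, so whether Ldha passed depended on the test. With IPA replicate 1, 2 or 3 also left out, the edgeR adjusted p of Ldha was 0.0944, 0.197 and 0.32. Leaving out untreated replicate 1 or 3 as well left 1 untreated library, with log2 fold changes of -0.69 and only -0.32. RefSeq names 3 pseudogenes of it, Ldha-ps, Ldha-ps2 and Ldha-ps3, and reads shared with them could have been split, which makes the level of Ldha less certain.

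Pdk1 (ENSMUSG00000006494), on chromosome 2 from base 71873215 to base 71903858, did not pass the test in either comparison, and its difference from Ldha was not tested. It had 325, 329 and 255 CPM in IPA replicates 1, 2 and 3, against 327, 133 and 353 CPM in untreated replicates 1, 2 and 3. Untreated replicate 2 lay far below the other 5 libraries, while the rest of the groups overlapped. The mean was 303 ± 41.5 CPM with IPA and 271 ± 120 CPM untreated (SD, n = 3 each). Its log2 fold change was -0.0076 ± 0.30 over all 6 libraries (SE; edgeR adjusted p = 0.993) and -0.27 ± 0.14 without untreated replicate 2 (SE; edgeR adjusted p = 0.337). Pdk1 was thus near 0 with untreated replicate 2 and had a negative fold change, like Ldha, without it.

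Vegfa and Adm encode secreted signals that act on blood vessels. Vegfa (ENSMUSG00000023951), the main growth factor for blood vessels, lies on chromosome 17 from base 46016993 to base 46032377. It had 340, 364 and 279 CPM in IPA replicates 1, 2 and 3, against 232, 172 and 282 CPM in untreated replicates 1, 2 and 3. The groups overlapped only in that IPA replicate 3 lay just below untreated replicate 3. The mean was 328 ± 43.5 CPM with IPA and 229 ± 54.8 CPM untreated (SD, n = 3 each). The log2 fold change was 0.31 ± 0.21 over all 6 libraries (SE; edgeR adjusted p = 0.667) and 0.24 ± 0.14 without untreated replicate 2 (SE; edgeR adjusted p = 0.435), a difference that did not pass the test.

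Adm (ENSMUSG00000030790), which encodes the vasodilator peptide adrenomedullin, was barely detected. Its reads numbered 0, 25 and 6 in IPA replicates 1, 2 and 3, against 1, 54 and 23 in untreated replicates 1, 2 and 3. For the 0 reads in IPA replicate 1 the exact 95% Poisson interval reached 1.08 CPM, and 3 counts there equal 0.88 CPM. Its level was 0.573 CPM in IPA replicate 2 and 0.146 CPM in IPA replicate 3, and 0.0494, 0.916 and 0.435 CPM in untreated replicates 1, 2 and 3. With so few reads the log2 fold change was -1.07 ± 1.25 over all 6 libraries (SE; edgeR adjusted p = 0.782) and 0.13 ± 0.93 without untreated replicate 2 (SE; edgeR adjusted p = 0.972), so no difference was detectable at this depth. The locus, on chromosome 7 from base 110627657 to base 110629820, lies within that of the long noncoding RNA Gm28863, and without stated strand handling their reads cannot be told apart.

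Car9 (ENSMUSG00000028463) encodes carbonic anhydrase IX, a membrane enzyme that helps tumour cells to control pH, and lies on chromosome 4 from base 43507026 to base 43513729. Its level was 532, 551 and 435 CPM in IPA replicates 1, 2 and 3, against 474, 384 and 619 CPM in untreated replicates 1, 2 and 3. The IPA libraries lay within the range of the untreated ones. The mean was 506 ± 62.4 CPM with IPA and 492 ± 119 CPM untreated (SD, n = 3 each). The log2 fold change was -0.18 ± 0.23 over all 6 libraries (SE; edgeR adjusted p = 0.798) and -0.22 ± 0.15 without untreated replicate 2 (SE; edgeR adjusted p = 0.52). Over all 6 libraries the CPM means and the fitted fold differ in sign because the fit also uses TMM factors, which were 1.06 to 1.11 for the IPA libraries and 0.754 for untreated replicate 2. The ends of the locus overlap those of Arhgef39 and Tpm2 in the annotation.

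Ndrg1 (ENSMUSG00000005125) encodes a cytoplasmic protein induced by hypoxia and other stresses and lies on chromosome 15 from base 66929318 to base 66969641. It had the most reads of the 9 genes, with 1862, 2070 and 2066 CPM in IPA replicates 1, 2 and 3, against 1708, 1484 and 2013 CPM in untreated replicates 1, 2 and 3. IPA replicate 1 lay below untreated replicate 3, so the groups overlapped. The mean was 1999 ± 119 CPM with IPA and 1735 ± 266 CPM untreated (SD, n = 3 each). The log2 fold change was -0.020 ± 0.24 over all 6 libraries (SE; edgeR adjusted p = 0.981) and -0.0017 ± 0.15 without untreated replicate 2 (SE; edgeR adjusted p = 0.998). As for Car9, the sign over all 6 libraries changed with library totals in place of TMM factors. The log2 fold change was then 0.20 for Ndrg1 and 0.16 for Pdk1, whose CPM means were also higher with IPA. With TMM factors but no filter on low counts it was 0.018 for Ndrg1 and 0.0088 for Pdk1, so the sign did not rest on the scaling alone. Neither gene passed the test in these cases.

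**Figure D2:**
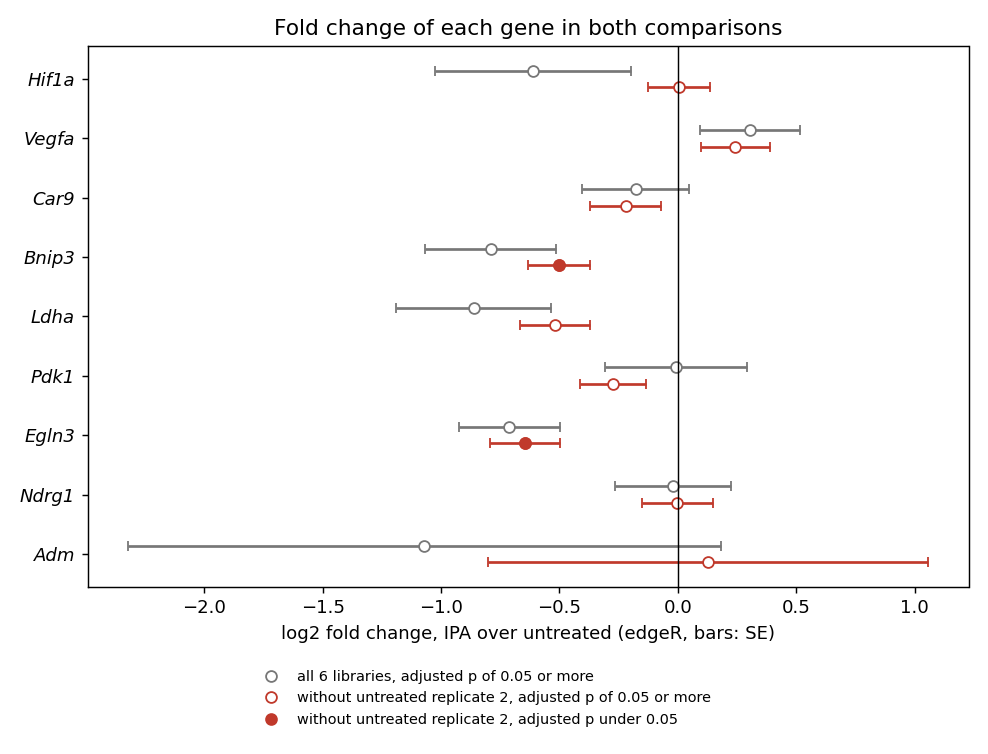
Fitted log2 fold change of each gene, IPA over untreated, with bars of 1 SE, over all 6 libraries (grey) and without untreated replicate 2 (red); filled points passed an adjusted p of 0.05 in edgeR. Bnip3 at -0.50 and Egln3 at -0.65 are the filled points, and Hif1a lies at -0.61 with that library and at 0.0049 without it.

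The median fold change of the 9 genes was below that of the table as a whole, but not every gene was below it. The median log2 fold change of the 9 was -0.61 over all 6 libraries, where that of all tested IDs was -0.08, and -0.22 without untreated replicate 2, where that of all tested IDs was -0.04. Left without Adm, the median of the other 8 was -0.39 over all 6 libraries and -0.25 over the 5. The value of -0.61 was that of Hif1a, which had a log2 fold change of 0.0049 without untreated replicate 2. Over the 5 libraries Hif1a, Vegfa, Ndrg1 and Adm lay above the median of all tested IDs. The CPM of IPA libraries lay wholly below that of untreated libraries for 3 of the 9 genes, Bnip3, Ldha and Egln3, both with and without untreated replicate 2, and wholly above for 0 of 9. Among all tested IDs 6.38% were wholly below over 6 libraries and 13.9% over 5, and 15.7% were wholly above over 6 libraries and 19.8% over 5, so such a separation was common. Egln3 had a larger decrease than most genes: in the comparison of 5 libraries 12.1% of tested IDs had a lower log2 fold change than it, against 17.3% for Bnip3 and 16.5% for Ldha. Library totals in place of TMM factors shifted the median of all tested IDs by 0.21 over 6 libraries and by 0.10 over 5. Measured from the median of all IDs under library totals, the log2 fold change over the 5 libraries was -0.60 for Egln3, -0.46 for Bnip3, -0.48 for Ldha and 0.29 for Vegfa.

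**Figure D3:**
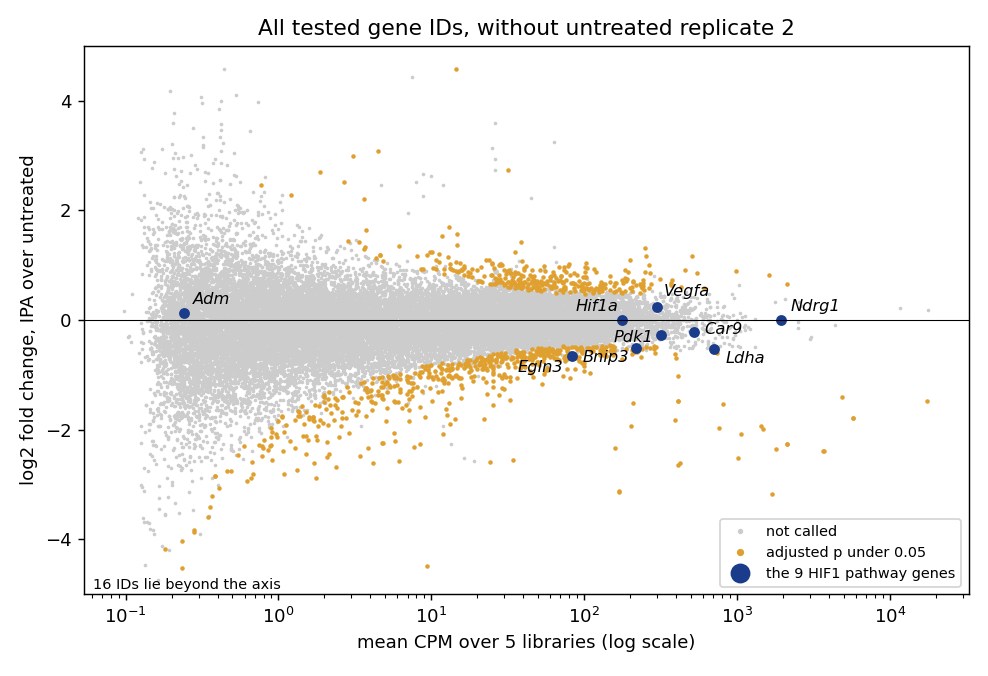
Log2 fold change, IPA over untreated (vertical axis), against mean CPM over the 5 libraries without untreated replicate 2 (horizontal log axis) for all 25592 tested IDs; 16 IDs lie beyond ±5. Yellow points passed an adjusted p of 0.05 in edgeR and blue points are the 9 genes, of which Egln3 and Bnip3 lie at the edge of the called IDs and Adm far to the left.

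The balance among the 9 genes within a library does not depend on depth or on scaling. Expressed as a share of the summed counts of the 9, Vegfa took 8.19%, 8.15% and 6.93% in IPA replicates 1, 2 and 3, against 5.77%, 4.24% and 5.96% in untreated replicates 1, 2 and 3. All IPA libraries were above all untreated libraries on this scale. Ldha took 15.7%, 15.1% and 13.9% in IPA replicates 1, 2 and 3, against 18.1%, 28.2% and 20.1% in untreated replicates 1, 2 and 3, with all IPA libraries lower. Egln3 took 1.66 ± 0.213% with IPA and 2.30 ± 0.122% untreated, and Bnip3 took 4.63 ± 0.162% with IPA and 6.61 ± 1.41% untreated (SD, n = 3 each), also with no overlap. Ndrg1, which made up the largest part, took 47.5 ± 3.34% with IPA and 40.5 ± 3.50% untreated (SD, n = 3 each), with all IPA libraries higher. On this scale 2 of the 9 genes lay wholly above and 3 wholly below, with or without untreated replicate 2. Scaled to the same sum, 16.7% of all tested IDs lay wholly above and 5.12% wholly below over 6 libraries, and 22.2% above and 9.96% below over 5. Lying wholly above, as Vegfa and Ndrg1 did, was thus about as common among all tested IDs as among the 9 genes. Shares of 1 sum are tied to each other, so a lower share of Ldha raises the others.

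**Figure D4:**
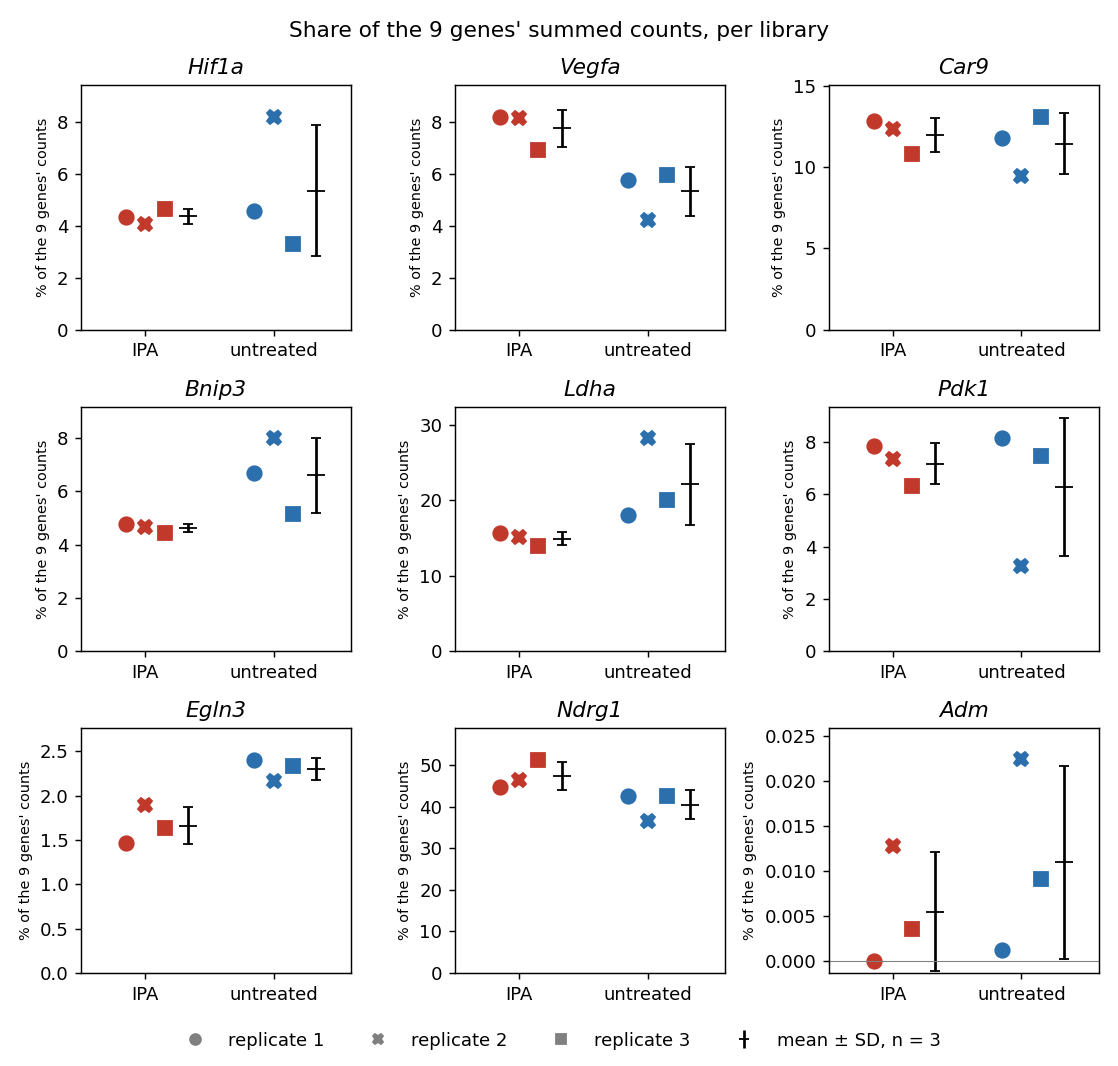
Share of each gene in the summed counts of the 9 genes, in percent (vertical axis, with its own scale in each panel), in IPA libraries (red, left) and untreated libraries (blue, right), with symbols for replicates and bars for the mean ± SD (n = 3 each). Vegfa and Ndrg1 lie higher in all 3 IPA libraries, and Bnip3, Ldha and Egln3 lower.

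The ratio of Vegfa to Ldha reads, chosen after the values were seen and so given with no test, was 0.522, 0.538 and 0.497 in IPA replicates 1, 2 and 3, against 0.319, 0.150 and 0.297 in untreated replicates 1, 2 and 3. The ratio was similar in the 3 IPA libraries and lower in every untreated library, including those of replicates 1 and 3. Its mean was 0.519 ± 0.0209 with IPA and 0.256 ± 0.0917 untreated (SD, n = 3 each), and 0.308 in the untreated libraries without replicate 2.

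Untreated replicate 2 changed the 9 genes in different directions. On the log2 scale of CPM, and relative to the mean of untreated replicates 1 and 3, it was at 1.92 for Adm, on few reads, 0.97 for Hif1a, 0.45 for Ldha and 0.34 for Bnip3. It was at -1.35 for Pdk1, -0.57 for Vegfa, -0.51 for Car9, -0.33 for Ndrg1 and -0.23 for Egln3. In CPM it therefore widened the difference from IPA for Ldha, Bnip3, Vegfa, Ndrg1 and Adm and narrowed it for Egln3. For Hif1a the IPA mean was 183 CPM, against an untreated mean of 224 CPM with that library and 170 CPM without it, so the direction of the difference rested on that library. The same held for Pdk1, where the IPA mean was 303 CPM, against an untreated mean of 271 CPM with it and 340 CPM without it. It also held for Car9, where the IPA mean was 506 CPM, against an untreated mean of 492 CPM with it and 547 CPM without it. The cause of its difference was not tested.

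The IDs whose pattern was most like the mean of the 9 genes, each centred on its own mean in log2 CPM, were sought among 13105 IDs of at least 5 CPM over 6 libraries and among 13069 over 5. They were ENSMUSG00000048796 and ENSMUSG00000036955 over 6 libraries, with a Pearson r of 0.964 and 0.951, and ENSMUSG00000057219 and ENSMUSG00000042202 over 5 libraries, with an r of 0.994 and 0.984. The sources used here do not pair these IDs with names. Each of the 9 genes had the same weight in the mean pattern, including Adm, which had few reads and varied most in proportion to its level. How far the r values follow Adm was not tested. The values are a description with no p, since the libraries share treatment and depth differences and the 2 searches named different IDs. They are also the highest r found among many IDs over few libraries, and such a search can by itself give a high r.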

How the data were processed

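The authors deposited 1 table of read counts, not normalized, for 6 libraries, with genes as Ensembl IDs; its header and whole-number values show the unit. Builds GRCm38 and mm10 are named in the submitters' processing notes. For the aligner, the counter, the annotation release and the treatment of strand and of multiple mapping, nothing is given in the sources used here. No ID had a total below 7 counts, so IDs with few or no reads may have been left out.

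Libraries were matched to samples by title. Counts were tested with the robust quasi-likelihood F-test of edgeR 4.0.16 in R 4.3.3 (TMM factors, filterByExpr), fitted on the whole table and adjusted by Benjamini-Hochberg over all tested IDs, with a threshold of 0.05. The SE is the log2 fold change divided by the square root of F. CPM are counts scaled to the library total, without TMM factors. The procedure was tested on simulated data, in which no library was made to stand apart as untreated replicate 2 did. All 9 genes passed the filter in both comparisons.

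All 9 genes were the named genes. They and the lists were chosen with earlier results of these data known. A further 54 HIF pathway genes and cell type markers, listed by symbol, were not analysed here, because the reference table of 49997 RefSeq genes (GRCm38) pairs 0 of them with an Ensembl ID. It matched the 9 by symbol, for positions. Alternatives were DESeq2 1.42.0, limma-voom (limma 3.58.1), other factors and filters, a replicate block and leaving out each library; voom with sample quality weights was chosen after seeing the data. Depth ran from 3410411 to 58924711 counts, so 3 counts equal 0.88 to 0.0509 CPM.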

Additional observations from a re-analysis of the deposited data

How the results depend on the processing

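Leaving out 1 library at a time from all 6 gave 0 to 2 of the 9 genes lower, with 0 to 322 IDs higher and 0 to 564 lower; every count above 0 came without untreated replicate 2. Quality weights also called 2 of the 9 (Bnip3 and Ldha) lower, with 492 IDs higher and 755 lower. DESeq2 called 45 IDs higher and 83 lower but 0 of the 9; library totals and no filter each called 1 ID higher. limma-voom called 0.

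On the 5 libraries, 2 of the 9 were lower. With Ldha added it was 3 under DESeq2, limma-voom, no filter and quality weights. Only 1, Egln3, was left with library totals, the filter at 1 CPM and the replicate block, under which Bnip3 was at -0.55 (edgeR adjusted p = 0.264); leaving out a further library gave 0 to 2, with 0 without IPA replicate 1 or 3. In 2 of those cases 1 untreated library was left, assumed to vary like the IPA group. Against 322 IDs higher and 564 lower, DESeq2 gave 645 higher, limma-voom 660 and 1009, quality weights 604 and 1084, library totals 691 and 327, no filter 701 higher, the filter at 1 CPM 357 lower, the replicate block 136 and 202, and leaving out a library 92 to 719 higher and 153 to 763 lower. The cause was not tested. Egln3 passed in 11 of 14 alternatives, Bnip3 in 7 and Ldha in 5, all 3 lower in all 14.

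None of the log2 fold changes that changed sign passed the test. Over 6 libraries these were, with quality weights, 0.015 for Hif1a, 0.054 for Ndrg1 and 0.67 for Adm; with library totals, 0.038 for Car9, 0.16 for Pdk1 and 0.20 for Ndrg1; with DESeq2 or RLE factors 0.011, with limma-voom 0.042, with no filter 0.0088 and with the replicate block 0.042 for Pdk1; and with no filter 0.018 for Ndrg1. Leaving out 1 library gave -0.85 to 0.0049 for Hif1a, -0.27 to 0.18 for Pdk1, -0.055 to 0.060 for Ndrg1 and -2.41 to 0.13 for Adm. Over 5 libraries they were -0.0056 for Hif1a with upper-quartile factors, and for Ndrg1 0.024 with DESeq2 or RLE factors, 0.0073 with limma-voom, 0.10 with library totals, 0.031 with no filter, 0.028 with quality weights and 0.013 with the filter at 1 CPM. Adm was at -1.67 with the replicate block. Leaving out a further library gave -0.11 to 0.13 for Hif1a, -0.10 to 0.11 for Ndrg1 and -0.54 to 2.45 for Adm. Deviations of same-numbered libraries correlated at -0.067, 0.0267 and 0.152, so the numbers were not taken to pair the samples. Adm failed the filter at 1 CPM in both comparisons, and that of filterByExpr on the 5 libraries without IPA replicate 2, so it has no value there. Depth limits Adm most, and IPA replicate 1 among the libraries.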
